A study of Mus musculus with 6 samples.

Results

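The NF-kB system was examined through 8 genes in CFPAC-1 cells, a human pancreatic adenocarcinoma (PAAD) line of ductal origin. The genes were chosen by identifier, as 8 of the 30543 rows of the deposited gene count table, and comprise the subunit genes *RELA* (ENSG00000173039), *RELB* (ENSG00000104856), *NFKB1* (ENSG00000109320) and *NFKB2* (ENSG00000077150), the inhibitor genes *NFKBIA* (ENSG00000100906) and *TNFAIP3* (ENSG00000118503), and the target genes *BIRC3* (ENSG00000023445) and *ICAM1* (ENSG00000090339). Cells received either a negative control siRNA (the si-Control group of 3 libraries) or a siRNA against *KRT7*, a keratin of glandular epithelium (the si-KRT7 group of 3 libraries), and polyadenylated RNA was sequenced on the DNBSEQ platform. Both groups were thus transfected with a siRNA, and all libraries came from this single line. The time of harvest, the KRT7 duplex used and the share of cells that took up siRNA were not given in the sources used here. Nothing in the labels says that the replicates were separate cultures, so the p-values measure the spread between these libraries, which may be technical. The labels name the mouse as the organism and the submitters' processing notes name the mouse build GRCm39, whereas every identifier in the table is a human Ensembl gene. The table carries no gene names, so the level of *KRT7* and the epithelial markers of the line were not analysed here. The knockdown was therefore not checked in these counts, while the paper reports its efficiency in CFPAC-1 cells by RT-qPCR. Library totals ran from 31932572 to 36315802 counts in si-Control and from 28208896 to 36218243 in si-KRT7, and the 8 genes had between 398 and 4816 counts in each library.

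NF-kB is a family of dimeric transcription factors. In resting cells the dimers are held in the cytoplasm by IkB proteins, and signals such as TNF or IL-1 activate a kinase complex that marks the IkB proteins for destruction and frees the dimers to enter the nucleus. Several of the genes then switched on encode the system's own brakes, so that the mRNA of the feedback genes is widely used as a readout of the pathway. RELA pairs mostly with the NFKB1 product p50 in the canonical arm, and RELB with the NFKB2 product p52 in the non-canonical arm. NF-kB signaling is often active in pancreatic cancer cells.

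In the comparison of si-KRT7 with si-Control cells over all 6 libraries, *BIRC3* stood 1.67-fold higher, *RELB*, *TNFAIP3* and *RELA* stood 28.2%, 27.5% and 21.7% lower, and *NFKB1* had nearly the same mean in both groups. None of these differences passed the test: 0 of the 8 genes had an adjusted p under 0.05 in edgeR's quasi-likelihood test with Benjamini-Hochberg adjustment over the 15736 genes tested, where 2.07% of all genes did. All 8 genes passed the filter on low counts. At an unadjusted p under 0.05 the number was 4 of 8 in edgeR, against 18.6% of all genes tested. The same 8 genes gave 4 calls in the DESeq2 Wald test (7.33% of all genes), 0 in limma-voom (1.96%) and 7 in limma-voom with sample quality weights (43.6%). They gave 4 in edgeR with no filter on low counts. There the share was 4.41% of 30543 genes, a larger set that includes genes of low counts, so it is not on the scale of the other shares. By sign, 6 of the 8 genes were lower in si-KRT7 cells, against 48.3% of all genes tested. The median log2 fold change of the 8 genes was -0.19, while the median of all genes tested was 0.011. The si-KRT7 and si-Control libraries did not overlap in 6 of the 8 genes, with 5 lower and 1 higher. Over all genes tested 24.4% did not overlap, 13.0% lower and 11.3% higher.

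**Figure D1:**
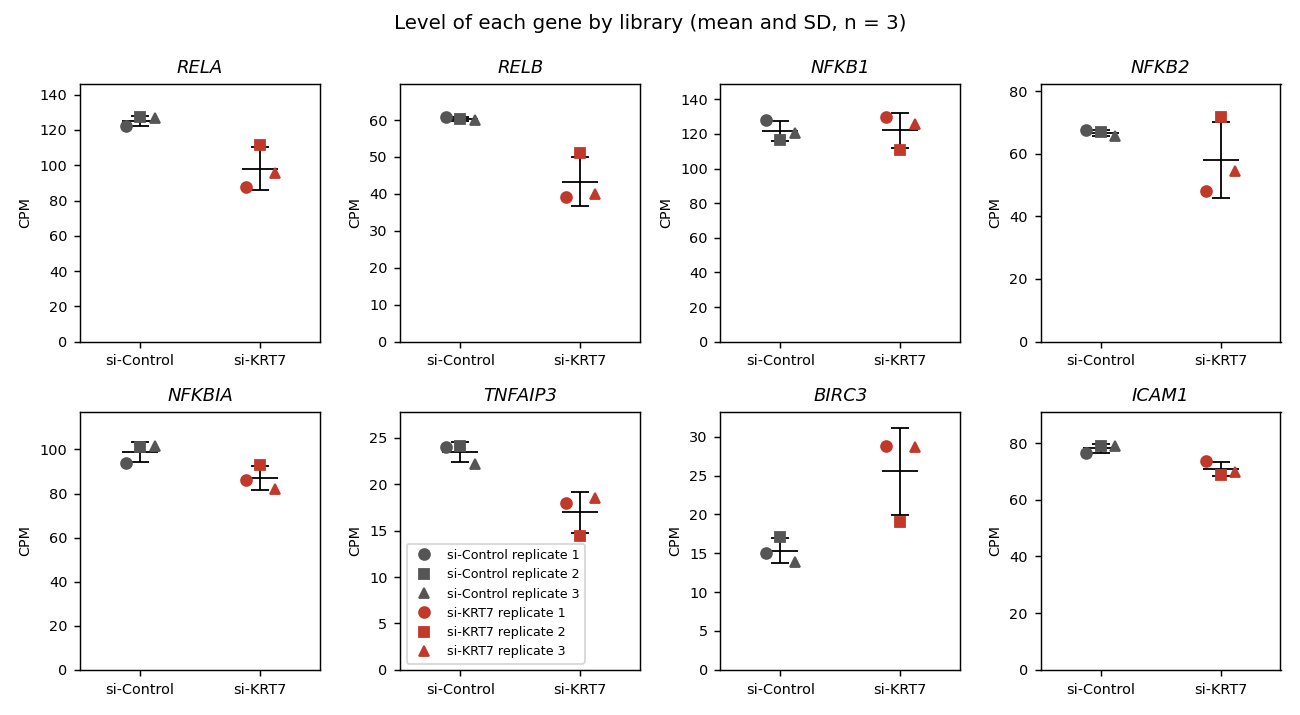
Level of each of the 8 NF-kB genes in CPM (counts scaled to a common library total; vertical axis from 0) in 3 si-Control libraries (grey) and 3 si-KRT7 libraries (red); symbols mark the replicate, and bars give the mean and SD. The si-Control libraries lie close together, and si-KRT7 replicate 2 (square) lies apart from replicates 1 and 3 in *NFKB2* and *BIRC3*.

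Si-KRT7 replicate 2 stood apart from the other si-KRT7 libraries over the whole table. Across the log2 CPM of all genes tested it had a Pearson correlation of 0.982 with each of them, whereas replicates 1 and 3 had 0.992 and the si-Control libraries 0.991 to 0.992 with each other. Its correlation with the si-Control libraries was 0.986 in each case, higher than with its own group. Replicates 1 and 3 had nearly the same correlation with the si-Control libraries, at 0.983 to 0.986. In a principal component analysis si-KRT7 replicate 2 lay at -15.4 on the first component, within the si-Control range of -23.3 to -13.2. Replicates 1 and 3 lay far from it at 33.0 and 33.4. On the second component replicate 2 lay at -41.3, apart from all other libraries. There the si-Control libraries lay at 11.5 to 14.6 and si-KRT7 replicates 1 and 3 at 2.55 and -1.59. The fold changes, ratios and profile distances below are therefore given with and without si-KRT7 replicate 2. The fit without it called 42.9% of all genes tested, so a call in that fit separates a gene from the rest of the table far less than a call over 6 libraries. This library was left out because it stood apart, which narrows the spread within its group. The common coefficient of variation between libraries in edgeR was 0.130 with it and 0.048 without it. The intervals and p-values of that fit therefore understate the spread between si-KRT7 libraries.

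*RELA* encodes the p65 subunit, which carries the main transactivation domain of the canonical dimer. Its level was 122, 127 and 127 CPM in si-Control replicates 1, 2 and 3 and 87.7, 111 and 95.4 CPM in si-KRT7 replicates 1, 2 and 3. All si-KRT7 libraries lay below all si-Control libraries, with replicate 2 nearest to the controls. The means were 125 ± 2.87 CPM (SD, n = 3) in si-Control and 98.1 ± 12.1 CPM (SD, n = 3) in si-KRT7. The log2 fold change was -0.35 (standard error 0.099, 95% interval -0.58 to -0.13), with an adjusted p of 0.113 in edgeR. Without si-KRT7 replicate 2 it was -0.46, with an adjusted p of 1.22e-08 in edgeR.

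*RELB* encodes the subunit that acts with p52 in the non-canonical arm and is itself a transcriptional target of RELA. In si-Control replicates 1, 2 and 3 it stood at 60.7, 60.1 and 59.9 CPM, the tightest group of any of the 8 genes, with a coefficient of variation of 0.711%. That spread is less than the counting error of *RELB* in these libraries, 2.14% to 2.30%, so it understates the variation to be looked for between controls. The si-KRT7 values were 39.0, 50.9 and 39.9 CPM in the same order, so that every si-KRT7 library was lower than every si-Control library. Of the 4 subunit genes *RELB* had the largest difference, with a log2 fold change of -0.48 (standard error 0.11, 95% interval -0.74 to -0.22, adjusted p = 0.0777 in edgeR). Without si-KRT7 replicate 2 the log2 fold change was -0.61 and the adjusted p 4.65e-09 in edgeR.

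*NFKB1* encodes p105, the precursor of p50. It stood at 128, 117 and 121 CPM in si-Control replicates 1, 2 and 3 and at 130, 111 and 126 CPM in those of si-KRT7, and the groups overlapped throughout. Its log2 fold change was 0.0043, with a 95% interval from -0.19 to 0.20 and an adjusted p of 0.987 in edgeR. That interval leaves out differences as large as those of *RELB* and *BIRC3* and holds smaller ones in either direction. Without si-KRT7 replicate 2 the log2 fold change was 0.066 (95% interval -0.022 to 0.15, adjusted p = 0.228 in edgeR), which made *NFKB1* the 1 gene of the 8 that did not pass in that fit.

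*NFKB2* encodes p100, the precursor of p52, which also acts as an inhibitor of RELB dimers before it is processed. Its si-Control replicates 1, 2 and 3 stood at 67.6, 66.8 and 65.5 CPM. Its si-KRT7 replicates 1 and 3 stood at 48.2 and 54.5 CPM, below all controls, while replicate 2 stood at 71.6 CPM, above all controls. The direction therefore differed between si-KRT7 libraries, and the log2 fold change of -0.20 had a 95% interval from -0.52 to 0.12 (adjusted p = 0.493 in edgeR). Leaving out si-KRT7 replicate 2 moved it to -0.38 with an adjusted p of 8.41e-06 in edgeR.

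The inhibitor genes both had lower means in si-KRT7 cells, by different amounts. *NFKBIA* encodes IkBalpha, the IkB protein that is resynthesised soon after NF-kB is activated and returns the dimers to the cytoplasm. It stood at 93.7, 101 and 102 CPM in si-Control replicates 1, 2 and 3 and at 86.2, 93.2 and 82.3 CPM in those of si-KRT7. The groups just failed to overlap: si-KRT7 replicate 2 lay at 93.2 CPM beside 93.7 CPM in si-Control replicate 1, and with 2562 counts its counting error alone was 1.98%, more than that gap. The log2 fold change was -0.18 (standard error 0.083, 95% interval -0.37 to 0.010, adjusted p = 0.296 in edgeR), and without si-KRT7 replicate 2 it was -0.23 (adjusted p = 2.89e-04 in edgeR).

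*TNFAIP3* encodes A20, a ubiquitin-editing enzyme that shuts off signaling upstream of the kinase complex. Its level was 24.0, 24.2 and 22.2 CPM in si-Control replicates 1, 2 and 3 and 18.0, 14.5 and 18.6 CPM in those of si-KRT7. No si-KRT7 library reached a control, and here replicate 2 was the lowest of the 6 libraries, farther from the controls than replicates 1 and 3. The log2 fold change was -0.46 (standard error 0.12, 95% interval -0.73 to -0.20, adjusted p = 0.0896 in edgeR). It was -0.37 without si-KRT7 replicate 2, with an adjusted p of 6.35e-04 in edgeR.

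Of the target genes, *BIRC3* was the only member of the set with a higher level in every si-KRT7 library than in any si-Control library. *BIRC3* encodes cIAP2, a ubiquitin ligase that joins TNF receptor complexes, restrains caspase-driven cell death and helps to hold the non-canonical kinase NIK at a low level. It had 520, 618 and 436 counts in si-Control replicates 1, 2 and 3, or 15.1, 17.1 and 13.9 CPM, and 1072, 524 and 883 counts in those of si-KRT7, or 28.9, 19.1 and 28.7 CPM. Relative to the mean of the controls, replicates 1 and 3 had 188% and 187% and replicate 2 had 124%. The means were 15.3 ± 1.62 CPM (SD, n = 3) in si-Control and 25.5 ± 5.60 CPM (SD, n = 3) in si-KRT7. The log2 fold change of 0.74 (standard error 0.17, 95% interval 0.35 to 1.13) was the largest in size among the 8 genes, and it missed the threshold with an adjusted p of 0.0694 in edgeR. Without si-KRT7 replicate 2 it was 0.90, with an adjusted p of 1.10e-08 in edgeR.

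*ICAM1* encodes an adhesion molecule that binds leukocyte integrins and is induced by NF-kB on epithelial and endothelial cells. It stood at 76.4, 79.0 and 79.1 CPM in si-Control replicates 1, 2 and 3 and at 73.7, 68.9 and 69.9 CPM in si-KRT7. The 3 si-KRT7 libraries lay below the controls and close to each other, replicate 2 included. The log2 fold change was -0.14 (standard error 0.076, 95% interval -0.32 to 0.031, adjusted p = 0.359 in edgeR) and -0.13 without si-KRT7 replicate 2, where the adjusted p was 0.0376 in edgeR. In bulk RNA of this kind, a lower level in every cell and a lower number of cells with the transcript cannot be told apart.

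**Figure D2:**
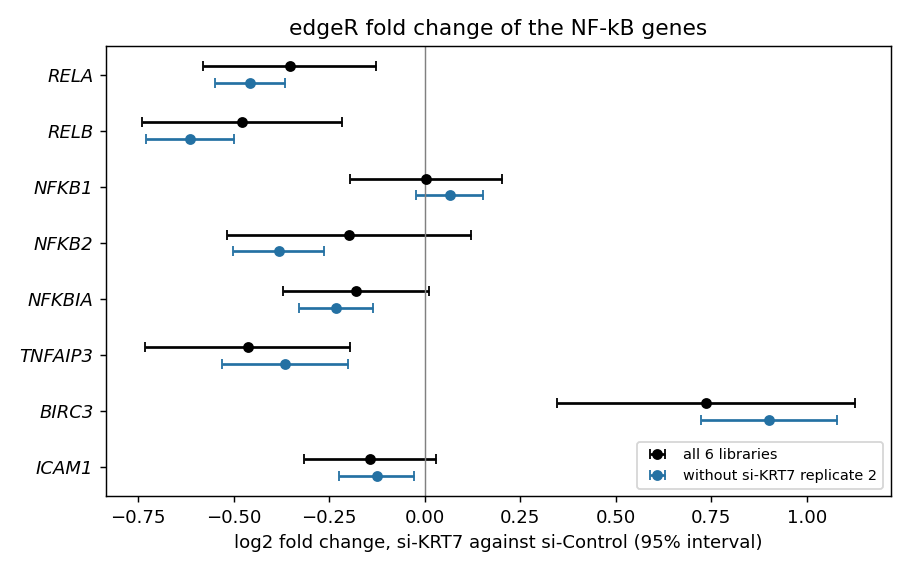
Log2 fold change of each NF-kB gene in si-KRT7 against si-Control cells (horizontal axis; points, edgeR estimates; bars, 95% intervals) over all 6 libraries (black) and without si-KRT7 replicate 2 (blue). Over 6 libraries the intervals of *RELA*, *RELB*, *TNFAIP3* and *BIRC3* leave out 0, and without replicate 2 only that of *NFKB1* includes it.

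For each gene a two-sided exact permutation test of the log2 CPM was also made, in which 3 libraries against 3 cannot give a p under 0.1. The exact test gave p = 0.1 for the 6 genes whose groups did not overlap, p = 0.4 for *NFKB2* and p = 1 for *NFKB1*. With si-KRT7 replicate 2 left out, the exact permutation test gave p = 0.3 for *NFKB1* and p = 0.1, again the smallest it can give, for the other 7 genes. Without si-KRT7 replicate 2, 7 of the 8 genes passed in edgeR, 6 lower (*RELA*, *RELB*, *NFKB2*, *NFKBIA*, *TNFAIP3* and *ICAM1*) and 1 higher (*BIRC3*). In the same fit 22.0% of all genes tested were called lower and 20.9% higher. The groups then did not overlap in 7 of the 8 genes, against 60.6% of all genes tested. The median absolute log2 fold change of the 8 genes was 0.37 in that fit and 0.28 over 6 libraries, where all genes tested had 0.25 and 0.18.

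The position of si-KRT7 replicate 2 differed from gene to gene. Taking the mean shift of replicates 1 and 3 from the si-Control mean on the log2 scale as 100%, replicate 2 had covered 37.4% of it for *RELA*, 39.7% for *RELB*, 36.6% for *NFKBIA* and 34.9% for *BIRC3*. For these 4 genes it lay between the groups at nearly the same place. It lay beyond replicates 1 and 3 for *TNFAIP3* (193%), and on the other side of the controls for *NFKB2* (-27.5%). For *ICAM1* the percentage was 147%, but replicate 2 stood at 68.9 CPM beside 69.9 CPM in replicate 3. That gap was smaller than the counting error of replicate 2, 2.30%. For *NFKB1*, whose shift in replicates 1 and 3 was smaller than the range of the controls, the percentage has no meaning. Among the 6903 genes that passed in the fit without replicate 2 and were also tested over all 6 libraries, this percentage had a median of -3.67% and quartiles of -54.5% and 48.8%, and 11.6% of these genes lay above 100%. These percentages describe the libraries and were not tested.

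**Figure D3:**
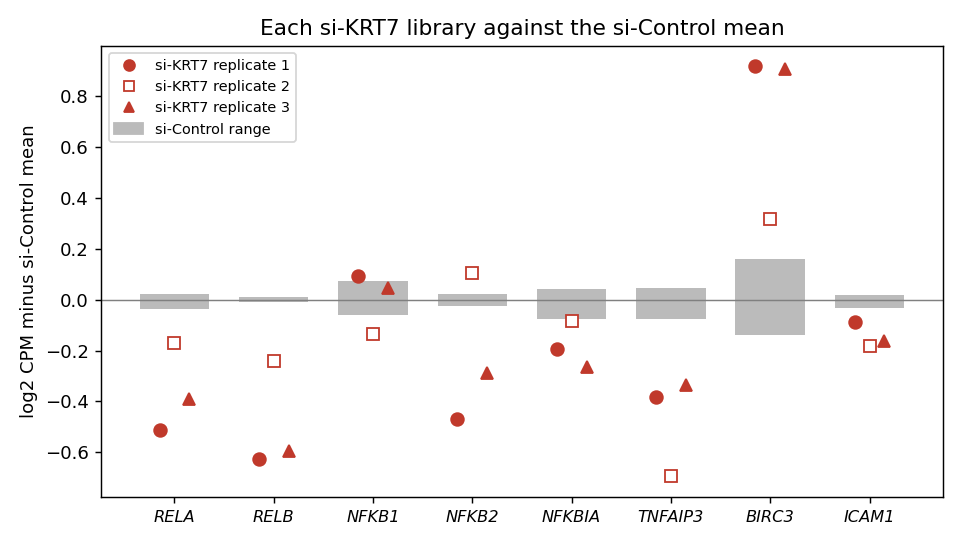
Log2 CPM of each si-KRT7 library minus the si-Control mean (vertical axis) for the 8 NF-kB genes; circles, squares and triangles are si-KRT7 replicates 1, 2 and 3, and the grey band is the range of the 3 si-Control libraries. Replicate 2 (open square) lies between the controls and the other si-KRT7 libraries for *RELA*, *RELB* and *BIRC3*, beyond them for *TNFAIP3*, and on the opposite side of the controls for *NFKB2*.

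Variation within the si-KRT7 group was larger than within the si-Control group for all 8 genes. The share of all genes with this difference was not computed. Since si-KRT7 replicate 2 stood apart over the whole table, it cannot be read as a trait of these genes. The coefficient of variation ran from 0.711% (*RELB*) to 10.6% (*BIRC3*) in si-Control and from 3.54% (*ICAM1*) to 22.0% (*BIRC3*) in si-KRT7. Si-KRT7 replicates 1 and 3 differed from each other by 0.010 (*BIRC3*) to 0.18 (*NFKB2*) on the log2 scale. Replicate 2 differed from their mean by 0.48 for *NFKB2*, by 0.37 for *RELB* and by -0.59 for *BIRC3*.

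Ratios of counts within a library do not depend on the scaling between libraries, and they show for which genes the difference between the groups was unequal. The pairs were chosen after the counts were seen, and since gene length was not used, a ratio says nothing of which mRNA was the more abundant. The ratio of *BIRC3*, the ligase gene, to *TNFAIP3*, the gene of the editing enzyme A20, was 0.629, 0.706 and 0.624 in si-Control replicates 1, 2 and 3. It was 1.61, 1.32 and 1.54 in those of si-KRT7. All si-KRT7 libraries, replicate 2 included, lay well above all controls, and the mean difference was 1.19 on the log2 scale (SD 0.10 in si-Control and 0.15 in si-KRT7, n = 3 each, two-sided exact permutation p = 0.1, adjusted p = 0.16 over 8 ratios). The mean difference was 1.27 without si-KRT7 replicate 2. The si-KRT7 libraries were unlike in which of these genes differed more from the si-Control mean. On the log2 scale replicate 2 had 0.32 for *BIRC3* and -0.70 for *TNFAIP3*. Replicates 1 and 3 had 0.92 and 0.91 for *BIRC3* and -0.38 and -0.34 for *TNFAIP3*.

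Among the subunits, the ratio of *NFKB2* to *RELB*, the non-canonical partners, was 1.11, 1.11 and 1.09 in si-Control replicates 1, 2 and 3 and 1.23, 1.41 and 1.37 in those of si-KRT7. The groups did not overlap, with a difference of 0.27 on the log2 scale (exact permutation p = 0.1, adjusted p = 0.16) and of 0.23 without si-KRT7 replicate 2. For the canonical partners, the ratio of *NFKB1* to *RELA* was 1.05, 0.916 and 0.954 in si-Control and 1.48, 0.996 and 1.32 in si-KRT7. Here replicate 2 lay within the si-Control range, and the difference of 0.36 on the log2 scale (exact permutation p = 0.2, adjusted p = 0.229) was 0.52 without it and 0.24 without si-KRT7 replicate 1. The ratio of the inhibitor gene *NFKBIA* to *RELA* was 0.768, 0.794 and 0.804 in si-Control and 0.983, 0.837 and 0.862 in si-KRT7, a difference of 0.18 with no overlap (exact permutation p = 0.1, adjusted p = 0.16). That difference was 0.22 without si-KRT7 replicate 2 and 0.11 without si-KRT7 replicate 1. The ratio of *NFKBIA* to *NFKB1* overlapped between the groups, with a difference of -0.18 (exact permutation p = 0.2, adjusted p = 0.229) that was -0.30 without si-KRT7 replicate 2 and -0.12 without si-KRT7 replicate 3. Of the 8 ratios 5 did not overlap between the groups, and none had an adjusted p under 0.05, which 3 libraries against 3 could not give. The share without overlap among ratios of other gene pairs was not computed. Among single genes it was 24.4%, and these pairs were chosen with the counts known, so the 5 of 8 cannot be read as unusual.

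**Figure D4:**
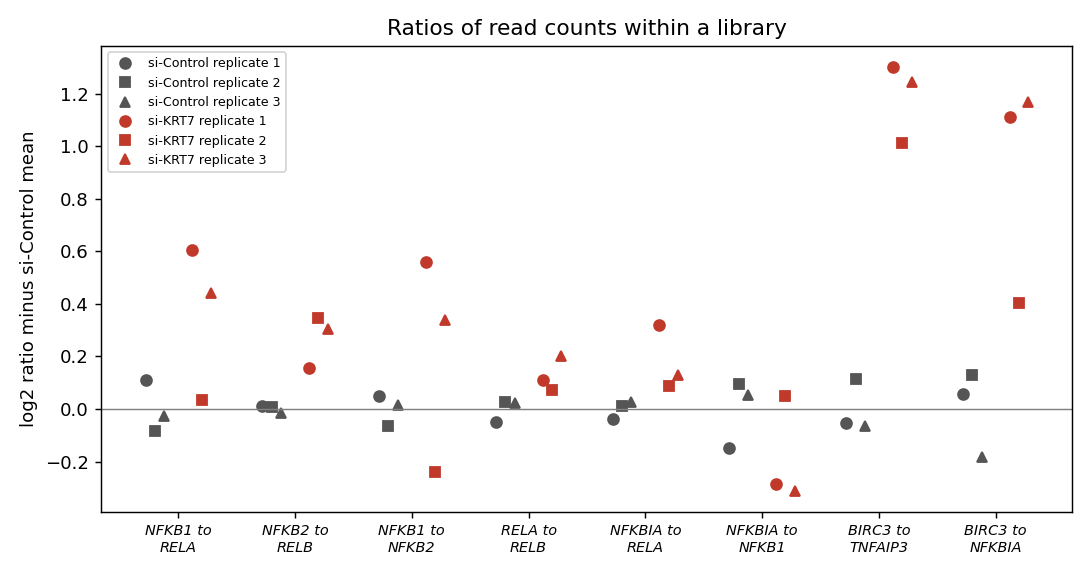
Log2 ratio of the read counts of 2 NF-kB genes within each library, minus the si-Control mean of that ratio (vertical axis), for 8 pairs; grey symbols are si-Control and red symbols si-KRT7 libraries. The *BIRC3* to *TNFAIP3* ratio is higher in all 3 si-KRT7 libraries, and the *NFKB1* to *RELA* and *NFKB1* to *NFKB2* ratios of si-KRT7 replicate 2 (square) do not follow replicates 1 and 3.

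The profiles of the genes over the 6 libraries were compared by the root-mean-square distance between their log2 CPM values, each centred on its own mean. *RELA* and *RELB* were nearest to each other at 0.079, and *NFKBIA* and *ICAM1* were nearest to each other at 0.074. *NFKB2* was nearest to *RELA* at 0.10. *TNFAIP3* had no close profile, its nearest being *ICAM1* at 0.20. *BIRC3* was the farthest profile for each of the other 7 genes, and its own nearest was *NFKB1* at 0.39. Without si-KRT7 replicate 2, *RELA* was nearest to *NFKB2* at 0.053 and lay 0.086 from *RELB*, and *NFKB2* and *TNFAIP3* were nearest to each other at 0.052. *NFKBIA* and *ICAM1* remained nearest to each other at 0.057, and *BIRC3* remained the farthest for the other 7 genes. The distances are descriptions, and all profiles share the division into the same groups of libraries.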

How the data were processed

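RNA-seq counts from 6 CFPAC-1 libraries were analysed, 3 si-Control and 3 si-KRT7. The deposited values are raw whole-number counts of reads on each gene, not normalized by the authors, and none of the per-sample columns was left unused. The submitters' processing notes name STAR 2.7.11b and GRCm39; the counting tool and annotation are not given in the sources used here. Gene names of the 8 identifiers came with the definition of the set. For the rest, 0 identifiers matched the mouse name tables used here, so gene lists by symbol, cell type markers, *KRT7*, positions and sequences were not analysed.

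Counts were filtered with filterByExpr, scaled by TMM and tested by quasi-likelihood (glmQLFit, glmQLFTest; edgeR 4.0.16, R 4.3.3), with Benjamini-Hochberg adjustment over all 15736 genes tested. The standard error is the log2 fold change divided by the square root of F. CPM used TMM-scaled totals; log2 CPM for distances and permutation tests used a prior count of 2. The text names all 8 genes. Alternatives were DESeq2 1.42.0, limma 3.58.1 with voom, other scalings and filters, each library left out, and the replicate number as a block. The members, lists and tests were chosen with earlier results of these data known. The edgeR, DESeq2 and limma-voom fits were tested on simulated data with a common dispersion for all genes. No simulated library stood apart as si-KRT7 replicate 2 did, so the simulation does not cover the effect of that library on the calls. The counts of 398 or more per gene and library limit counting error to about 5.01% or less.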

Additional observations from a re-analysis of the deposited data

How the results depend on the processing

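Over all 6 libraries 0 of the 8 genes passed an adjusted p of 0.05 in edgeR, and the number was also 0 with limma-voom, with library size as the only scaling, with the size factors of DESeq2 in edgeR and with genes limited to those of 10 counts or more in each library. The DESeq2 Wald test and the edgeR fit with no filter on low counts each gave 4 (1 higher, 3 lower), while sample quality weights in limma-voom gave 7 (1 higher, 6 lower). In these 3 fits in turn the log2 fold changes were -0.35, -0.37 and -0.43 for *RELA*, -0.48, -0.49 and -0.60 for *RELB*, -0.46, -0.48 and -0.38 for *TNFAIP3*, and 0.74, 0.72 and 0.87 for *BIRC3*, given in the order DESeq2, no filter, quality weights. With quality weights *NFKB2* (-0.35), *NFKBIA* (-0.23) and *ICAM1* (-0.13) passed as well. No gene but *NFKB1* changed direction: its log2 fold change was -0.0085 with no filter on low counts.

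Leaving out each library in turn gave 0 to 7 genes of the 8 (0 to 1 higher, 0 to 6 lower). All 7 were called with si-KRT7 replicate 2 left out, and the other 5 fits gave 0. The log2 fold change ran from -0.46 to -0.28 for *RELA*, -0.61 to -0.41 for *RELB*, -0.043 to 0.066 for *NFKB1*, -0.38 to -0.082 for *NFKB2*, -0.23 to -0.14 for *NFKBIA*, -0.53 to -0.37 for *TNFAIP3*, 0.64 to 0.90 for *BIRC3* and -0.17 to -0.13 for *ICAM1*. For the 8 ratios, where this was chosen after seeing the data, no sign reversed, and the difference ran from 0.24 to 0.52 for *NFKB1* to *RELA*, 0.23 to 0.33 for *NFKB2* to *RELB*, 0.049 to 0.45 for *NFKB1* to *NFKB2*, 0.092 to 0.16 for *RELA* to *RELB*, 0.11 to 0.22 for *NFKBIA* to *RELA*, -0.30 to -0.12 for *NFKBIA* to *NFKB1*, 1.13 to 1.27 for *BIRC3* to *TNFAIP3* and 0.76 to 1.14 for *BIRC3* to *NFKBIA*.

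Over all genes tested, 325 passed the adjusted p and 46 an absolute log2 fold change over 1 as well. These numbers were 1153 and 101 in the DESeq2 Wald test, 6858 and 443 with quality weights, 1347 and 154 with no filter, and 6 to 6944 and 6 to 356 with a library left out. The first of them was 6, 6 and 10 without si-Control replicates 1, 2 and 3 and 87, 6944 and 36 without si-KRT7 replicates 1, 2 and 3. The cause was not tested.

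With the replicate block 76 and 25 genes passed, 0 of the 8 genes did, and *NFKB1* had a log2 fold change of -0.00028. Between libraries of 1 number, the deviations from the group mean correlated at 0.052, -0.080 and -0.073 across genes. No pairing by number was seen. Since si-KRT7 replicate 2 weighs heavily on the deviations in its group, these values cannot exclude a pairing. The alternatives planned for gene lists by symbol could not be run without names for the identifiers.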
